A study of Danio rerio with 170 samples.

Results

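7,12-B[a]AQ (benz[a]anthracene-7,12-dione) is a polycyclic aromatic hydrocarbon of 4 fused rings that carries a ketone on each side of an inner ring, which makes it a quinone. Zebrafish embryos exposed to it at 10 µM were compared with the DMSO embryos of the same study, one of the studies combined in a set of transcriptomes taken at 48 h post fertilization (hpf). The exposed group was every entry carrying this chemical name and dose, and the control group was every DMSO entry of that study. Of the 170 entries of the series, 6 were 7,12-B[a]AQ and 8 were its DMSO controls. Entries with the same lane and index were treated as runs of 1 library and averaged, giving 3 exposed and 3 DMSO libraries out of 144 in all.

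RNA came from whole wildtype embryos, was selected for poly(A) and was read at 50 bases. The DMSO controls had 1% DMSO. The hours of exposure and the number of embryos per library for 7,12-B[a]AQ are not given in the sources used here. Also described below are BEZO (benzanthrone, which has 1 ketone) at 10 µM in 2 libraries and 9,10-PQ (9,10-phenanthrenequinone) at 1.2 µM in 3 libraries, which share the DMSO libraries with 7,12-B[a]AQ. B[a]P (benzo[a]pyrene) at 10 µM in 3 libraries had its own 3 libraries at 1% DMSO, and TCDD (dioxin, a potent AHR ligand) at 1 ng/mL in 4 libraries had its own 4 libraries at 0.1% DMSO. By the study's methods, 10 µM is a dose at which either ketone affects all embryos. The labels do not say that replicates came from separate batches of embryos, so p-values measure the spread between these libraries.

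The aryl hydrocarbon receptor (AHR) is a ligand-activated transcription factor that pairs with ARNT and raises transcription of CYP1 monooxygenases, which oxidise polycyclic aromatic hydrocarbons. In zebrafish, AHR2 is the form through which TCDD and several such hydrocarbons act in the embryo, and cyp1a serves as its marker gene. Quinones can be reduced and oxidised in cycles and can bind thiols, and the Keap1 and Nrf2 pair is the sensor system that raises genes of glutathione and quinone handling.

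The exposed libraries held 15173583, 11077292 and 14500669 reads on genes, and the DMSO libraries held 12887354, 19004132 and 18109922. All were on lane 1 except exposed library 3, which was on lane 2. Entries averaged to 1 library differed by 0.985 to 1.06 times counting noise over 16 pairs, against 1.14 to 3.04 times over 48 pairs from different libraries of a group, so they were counted as 1 sample. Values below are normalized counts, and log2 fold changes (log2FC) are on the log2(normalized count + 1) scale, which understates the change of low genes. Fold changes of 7,12-B[a]AQ, BEZO and 9,10-PQ over DMSO were tested with limma in a fit over the 11 libraries of the study, with p-values adjusted over 21854 genes. The median log2FC over all genes was 0.028.

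Tissue markers were present in both groups with the exception of ckma, a muscle creatine kinase, which stood at 0 to 1.01 in exposed and 0.969 to 1.62 in DMSO libraries while other genes of the skeletal muscle list were abundant. The neuron marker elavl3 (25643 to 26267 against 25868 to 26540), the endothelial marker kdrl (491 to 515 against 495 to 515) and the heart marker myl7 (284 to 359 against 341 to 389) did not pass the test. The epidermal keratin krt4 was lower in exposed embryos, at 38730 to 47813 against 58817 to 64843, as were the liver marker fabp10a, at 6.79 to 8.20 against 10.8 to 28.6, and the pigment cell marker pmela, at 1456 to 1894 against 1978 to 2390. In whole embryos, fewer cells of a type and less RNA per cell cannot be told apart.

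Exposure to 7,12-B[a]AQ changed 1741 genes at an adjusted p under 0.05, which is 7.97% of the genes tested. Of these, 814 were higher (3.72%) and 927 were lower (4.24%). Differentially expressed genes (DEGs), which also had an absolute log2FC over 1, numbered 274 (1.25%), with 161 higher (0.737%) and 113 lower (0.517%). Higher genes were 58.8% of the DEGs (exact Clopper-Pearson 95% interval 52.7 to 64.6, for counting error only). The interval treats genes as independent, which genes of the same libraries are not, so it is no test of direction. Without the fold limit the lower genes were the larger part. The shares of 3.72% higher and 4.24% lower are those against which the counts of list members below are to be read. The 3 exposed libraries lay above all 3 DMSO libraries for all 161 higher DEGs, where 12.9% of all genes did so. They lay below them for 112 of the 113 lower DEGs, where 11.8% of all genes did so. The DEGs were called from these same libraries, so the call largely fixes this separation, which gives no further support. The genes with the largest changes described below were also picked among DEGs without overlap. The largest increase was that of cyp1a, and the largest decreases were those of fkbp5, rhcga and klf9.

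**Figure D1:**
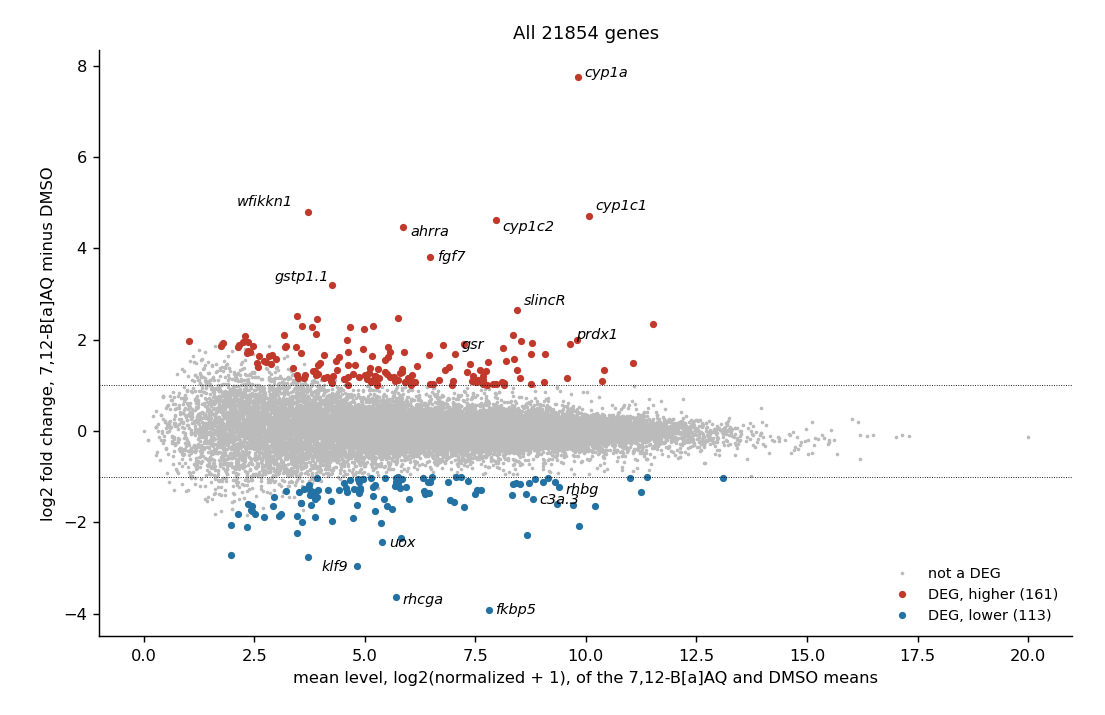
Mean level of each gene on the log2(normalized count + 1) scale (horizontal axis) against the log2FC of 7,12-B[a]AQ over DMSO (vertical axis), 1 point per gene, with the 274 DEGs in colour. cyp1a stands at the top with a log2FC of 7.76 and fkbp5 at the bottom with -3.91.

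The CYP1 monooxygenase cyp1a gave the largest response of all genes, and cyp1c1 and cyp1c2 were among the next. cyp1a stood at 70.33, 46.5 and 65.3 in the DMSO libraries and at 13801, 13566 and 12208 in the 7,12-B[a]AQ libraries. All exposed libraries were therefore far above all controls, by 217-fold on average (log2FC 7.76, SE 0.124, limma adjusted p = 3.26e-20). cyp1c1 went from 175, 217 and 237 to 5392, 5721 and 5329 (log2FC 4.71, limma adjusted p = 2.89e-18), and cyp1c2 from 46.3, 48.9 and 52.1 to 1297, 1295 and 1118 (log2FC 4.63, adjusted p = 5.94e-16). The groups did not overlap for either gene, and the exposed libraries of each lay close together. cyp1d1, the remaining measured CYP1 gene, stood at 165, 185 and 174 against 181, 178 and 167 in DMSO. Its groups overlapped, with a log2FC of -0.0044 and a 95% interval of -0.24 to 0.23. In the 18 DMSO libraries of the other studies cyp1a ran from 69.7 to 259.9, so every 7,12-B[a]AQ library was also above all other controls of the series.

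**Figure D2:**
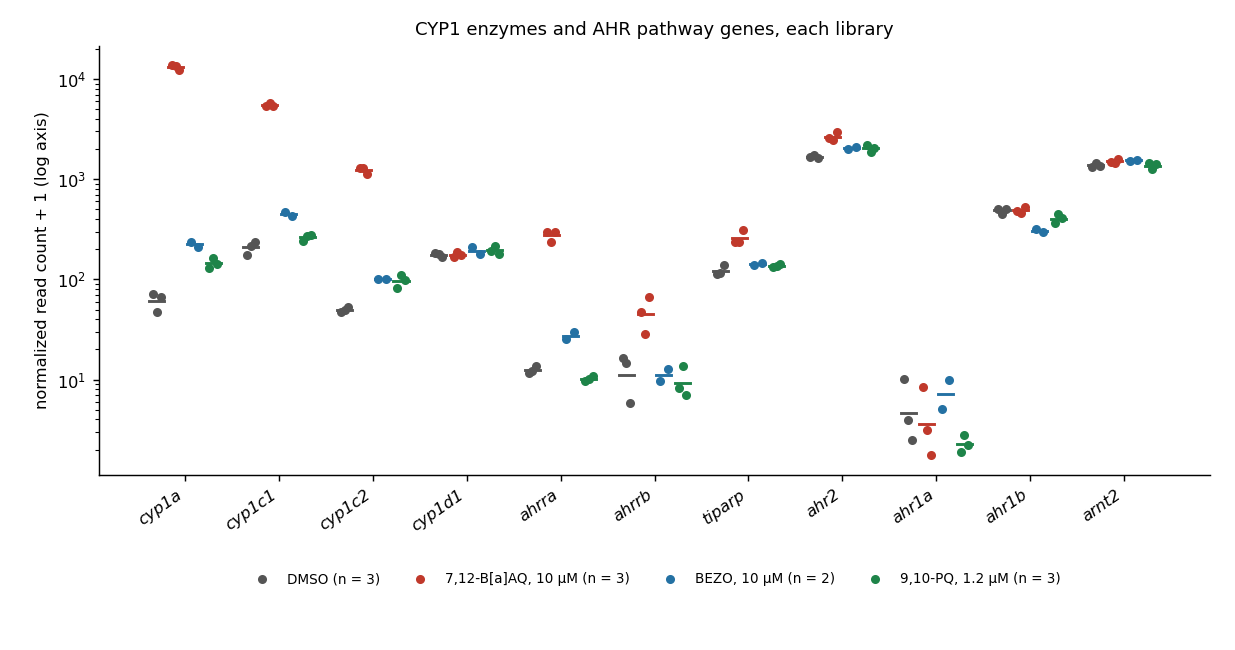
Normalized counts + 1 (log axis) of CYP1 and AHR pathway genes in DMSO, 7,12-B[a]AQ, BEZO and 9,10-PQ, 1 point per library with a bar at the group mean taken on the log2 scale. The 7,12-B[a]AQ points stand above all DMSO points for cyp1a, cyp1c1, cyp1c2, ahrra, ahrrb, tiparp and ahr2, and overlap them for cyp1d1, ahr1a and ahr1b. For arnt2 they also stand above, by a narrow margin, though it did not pass the test.

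The genes that carry and restrain the receptor moved in part. ahrra, a repressor that competes with AHR for ARNT, rose from 10.5, 11.1 and 12.6 to 296, 235 and 295 (log2FC 4.47, limma adjusted p = 2.74e-11). Its paralogue ahrrb rose from 15.5, 13.6 and 4.89 to 46.7, 27.7 and 65.8 (log2FC 2.00, adjusted p = 0.00347), with no overlap but a wide spread among the exposed libraries. tiparp, an ADP-ribosyltransferase that damps the receptor, stood at 112, 115 and 137 in DMSO and 234, 237 and 314 after exposure (log2FC 1.09, adjusted p = 1.2e-05). The receptor gene ahr2 itself rose from 1670, 1730 and 1638 to 2550, 2439 and 2936 (log2FC 0.65, adjusted p = 1.1e-05). Of the 12 receptor, partner and repressor genes, 4 rose and 2 fell. Those that fell were the p23 co-chaperone genes ptges3a (-0.59) and ptges3b (-0.34), whose product helps hold unliganded AHR in its complex. ahr1b had a log2FC of 0.0045 (95% interval -0.19 to 0.20), arnt of 0.16 and arnt2 of 0.13, and none of these passed the test.

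A further list held the genes that the study names as close to cyp1a in a co-expression network. That network was built in part on these libraries, so the direction of the list is not independent evidence. Of 27 measured members, 23 rose and 1 fell, with a median log2FC of 1.49. fgf7, a fibroblast growth factor, stood at 26, 23.7 and 18.9 in DMSO and 333, 339 and 331 after exposure (log2FC 3.82, SE 0.207, limma adjusted p = 8.54e-11). wfikkn1, a secreted binder of myostatin-type growth factors, was at or near 0 in DMSO with 0, 1.94 and 2.93 and rose to 85, 66.3 and 40.9 (log2FC 4.79, a value that depends on the added count of 1, adjusted p = 1.26e-06). Exposed and DMSO libraries were separate for both, with fgf7 almost equal among the exposed libraries and wfikkn1 spread over a wider range.

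slincR, a long noncoding RNA described in zebrafish next to sox9b, rose from 142, 156 and 117 to 698, 1014 and 935 (log2FC 2.66, limma adjusted p = 4.2e-11). sox9b, a transcription factor of cartilage, fell from 751, 848 and 877 to 643, 606 and 598 (log2FC -0.42, adjusted p = 0.00162), also without overlap. foxq1a, a forkhead factor, rose by 1.84 and its paralogue foxq1b, chosen after its values were seen, by 1.26. cyb5a, the cytochrome b5 that passes electrons to P450 enzymes, rose by 1.16, and ethe1, an enzyme of sulfide oxidation, by 1.20. The single member that fell was clcn2c, a chloride channel, from 52.3, 41.6 and 73.1 to 24, 21.4 and 22.1 (log2FC -1.23, adjusted p = 0.00187). edn1 (0.79, adjusted p = 0.0609), plvapa (0.39) and thbs1b (0.073) did not pass the test.

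**Figure D3:**
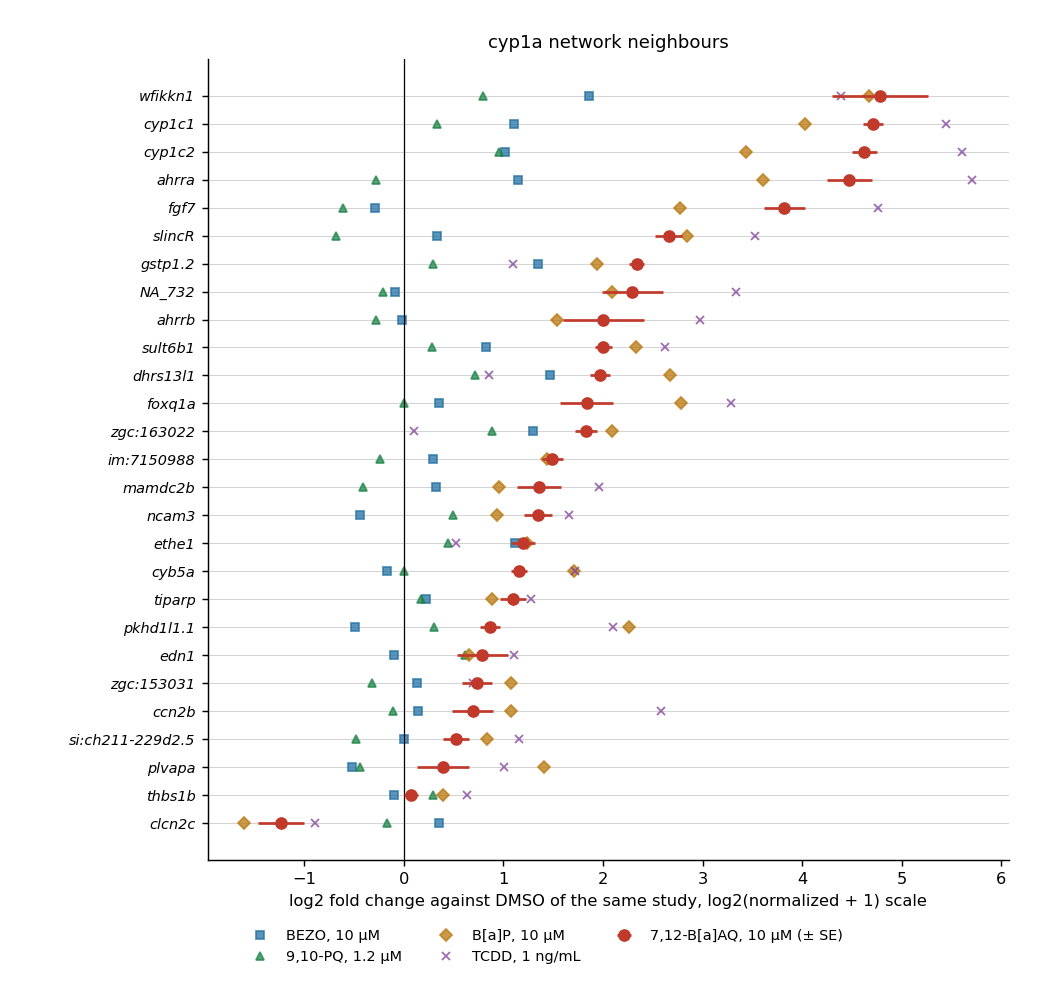
log2FC of the 27 measured cyp1a network neighbours (rows) in each treatment over the DMSO group of its own study, 1 symbol per treatment, with bars of 1 SE for 7,12-B[a]AQ. BEZO and 9,10-PQ share their DMSO libraries with 7,12-B[a]AQ. Medians were 1.49 for 7,12-B[a]AQ, 0.29 for BEZO, 1.71 for B[a]P and 1.72 for TCDD.

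Conjugating enzymes rose as single genes rather than as whole families, where 3.72% of all genes rose and 4.24% fell. gstp1.2, a pi-class glutathione S-transferase, went from 1394, 1287 and 1250 to 6338, 7013 and 6526 (log2FC 2.34, limma adjusted p = 6.74e-15). Its neighbour in name gstp1.1 went from 5.98, 5.81 and 4.41 to 56.9, 59 and 55.6 (log2FC 3.19, limma adjusted p = 2.41e-06). How reads that match both genes were treated in counting is not given in the sources used here. The groups were fully separate for both. Of 16 measured glutathione S-transferases, 4 rose and 1 fell, the fall being gstm.3 (-0.66). The sulfotransferase sult6b1 rose from 456, 433 and 452 to 1648, 1941 and 1799 (log2FC 2.00), while sult2st2 (-1.05, adjusted p = 0.0178) and the scarcely expressed sult3st3, at 0, 2.16 and 0.766 against 3.8, 7.74 and 8.66, fell, and the other 13 of 16 did not pass the test. The glucuronosyltransferases ugt1a7 and ugt1b5 rose by 2.23 and 1.64, the only 2 called of 13 measured, where 35.1% of the written list was measured. Among 18 ABC transporters, abcb6a (1.12), abcb5 (0.65) and abca1a (0.51) rose, and the efflux pumps abcb4 (-0.87) and abcg2a (-0.72) fell.

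Thiol and quinone defence genes rose in part, where 3.72% of all genes rose and 4.24% fell. Of 36 Nrf2 and glutathione redox genes, 12 rose and 1 fell (prdx4, -0.36, named after its value was seen), with a median log2FC of 0.25. prdx1, a peroxiredoxin, stood at 425, 354 and 452 in DMSO and 1577, 1453 and 1595 after exposure (log2FC 1.91, SE 0.0881, limma adjusted p = 7.06e-12). gsr, the reductase that restores glutathione, stood at 62.6, 65.3 and 88.5 in DMSO and 224, 227 and 248 after exposure (log2FC 1.69, adjusted p = 1.2e-07). The exposed libraries of both genes were separate from DMSO and alike among themselves. The autophagy receptor sqstm1 (1.68), the Nrf2 paralogue nfe2l2b (1.36), the Nrf2 inhibitor keap1a (1.08) and the ferritin gene fthl27 (0.86) also rose. In the 18 other DMSO libraries of the series prdx1 ran from 273 to 2039, a range that holds the exposed values, whereas gsr ran from 35 to 139 and sqstm1 from 111 to 371, below them.

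Of 25 carbonyl and quinone reductases, 5 rose and none fell. aifm4, of the apoptosis-inducing factor family of oxidoreductases, rose from 204, 259 and 212 to 742, 933 and 915 (log2FC 1.94, limma adjusted p = 8.54e-11), and cbr1l, a carbonyl reductase, from 276, 209.6 and 238 to 697, 867 and 754 (log2FC 1.68). Both were separate from DMSO in all libraries. htatip2 (1.02) and aifm2 (0.74) followed, and nqo1, the 2-electron quinone reductase, rose by 0.42 (adjusted p = 0.0108).

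A further list held genes downstream of p53, the transcription factor of DNA damage and other stresses. Of 20 measured, 8 rose, none fell and 12 did not pass the test, with a median log2FC of 0.33. Among all genes 3.72% rose and 4.24% fell. The cell cycle inhibitor cdkn1a went from 53.9, 36.3 and 47.5 to 78.2, 93.2 and 109 (log2FC 1.01, limma adjusted p = 0.0049), and the proapoptotic bbc3 from 36.7, 44.1 and 61.4 to 85.7, 85.3 and 134 (log2FC 1.08, adjusted p = 0.0031). Exposed libraries lay above DMSO for both by a narrow margin. gadd45aa (0.89), casp8 (0.74), sesn2 (0.68) and mdm2 (0.54), the ubiquitin ligase of p53, rose as well. Of 31 DNA replication and mitosis genes, 8 fell and none rose, among them the replicative helicase genes mcm6 (-0.62), mcm2 (-0.61) and mcm3 (-0.61) and the clamp pcna (-0.45). In a fit over all libraries of the series these counts dropped to 4 for the p53 targets and 3 for DNA replication, and with only the first entry of each library 5 p53 targets rose.

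Other stress lists were mixed, where 3.72% of all genes rose and 4.24% fell. Of 25 genes of the unfolded protein and amino acid stress response, 2 rose, atf3 (1.21) among them, and 7 fell, among them the endoplasmic reticulum chaperones hsp90b1 (-0.88), pdia4 (-0.82) and hyou1 (-0.74). Of 23 heat shock chaperones, 3 fell and none rose. hsp90aa1.1 stood at 2642, 2831 and 3215 in DMSO and 1715, 1450 and 1146 after exposure (log2FC -1.02, limma adjusted p = 7.5e-06). Outside the list, the small heat shock genes hspb9l (1.51) and hspb9 (1.07) rose. The heat shock genes hspb6 (-1.14) and hspa14 (-1.07) fell. hspb9l, hspb9 and hspa14 were chosen after their values were seen. Among 22 inflammation and matrix remodelling genes, cxcl18b (1.51), mmp13a (1.29) and socs3b (1.13) rose and none fell. Single genes with large increases outside these lists were fosl1a, an AP-1 subunit, from 11, 8.72 and 10.27 to 26.2, 71.4 and 76, and tcap, a titin-binding muscle protein, from 195, 157 and 112 to 444, 683 and 929 (log2FC 2.28 and 2.11). Both were lowest in exposed library 1 among the exposed libraries, and still above all DMSO libraries of the study. ctsl.1, a cathepsin L, rose from 18.1, 28.5 and 18.9 to 120.0, 146 and 107 (log2FC 2.47) and was the one member called of 7 measured hatching gland genes.

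**Figure D4:**
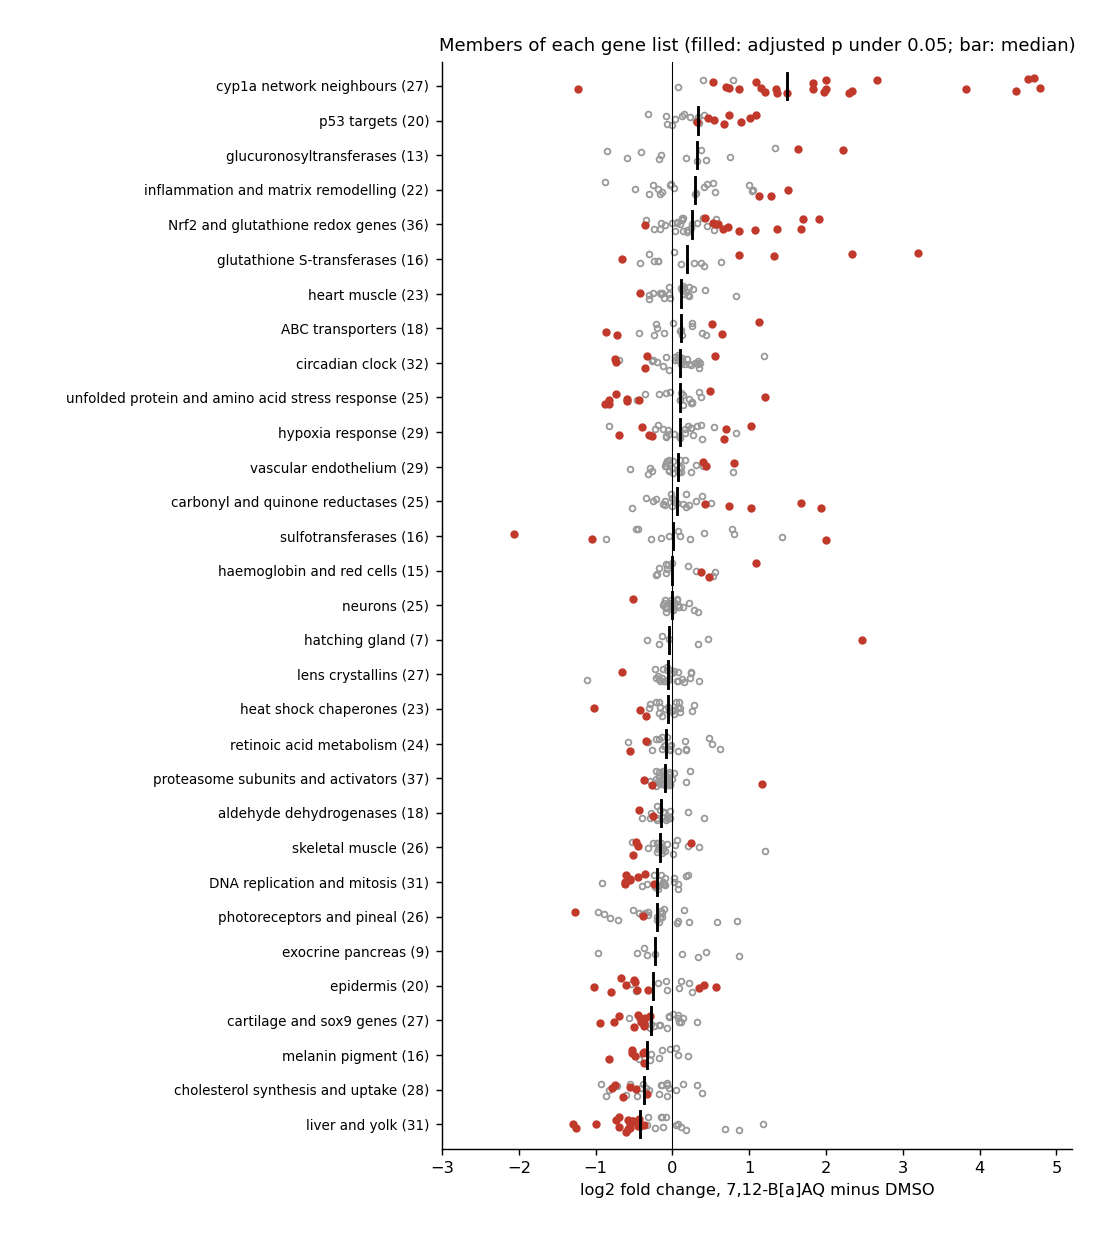
log2FC of 7,12-B[a]AQ over DMSO (horizontal axis) for every measured member of the gene lists described here (rows, with the number measured), other than the CYP1 and receptor lists, with filled points for an adjusted p under 0.05 and a bar at the median. Among the lists drawn, the cyp1a neighbours have the highest median (1.49) and the liver and yolk genes the lowest (-0.43).

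In several lists of tissue genes, part of the members fell after exposure, where 4.24% of all genes fell and 3.72% rose. Of 31 liver and yolk genes, 17 fell and none rose, with a median log2FC of -0.43 and a summed level of 171293 to 201590 against 239361 to 250607 in DMSO. apoba, an apolipoprotein B gene, stood at 17587, 20195 and 19770 in DMSO and 10172, 9700 and 9048 after exposure (log2FC -0.99, limma adjusted p = 1.69e-06). All exposed libraries were below all DMSO libraries. The transferrin gene tfa (-0.70) and the apolipoprotein gene apoc2 (-0.70) also fell. Without DMSO library 1 the count was 10 and without DMSO library 2 it was 11. The list does not hold every gene expressed in the liver. Outside it, hpdb (1.24), hgd (1.01), pon1 (1.07) and tfr2 (1.14), chosen after their values were seen, rose.

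Of 27 cartilage and sox9 genes, 11 fell and none rose (median -0.28, summed level 46319 to 54069 against 61176 to 62994). matn1, a cartilage matrix protein, stood at 486, 481 and 381 in DMSO and 283, 232 and 187 after exposure (log2FC -0.95, limma adjusted p = 0.000179), and the aggrecan gene acana (-0.76) and the collagen IX gene col9a1a (-0.69) fell too. Of 16 melanin pigment genes, 7 fell and none rose (median -0.33, summed level 8862 to 10307 against 12006 to 12474), with 4 called without DMSO library 1 and also without DMSO library 3. Among them were the melanin synthesis genes tyrp1a (-0.83), tyr (-0.48) and dct (-0.39). Of 20 epidermis genes, 8 fell, with krt1-19e (-1.02) and krt17 (-0.80) in front, and 3 rose, with evpla (0.56) in front. Their summed level was 99770 to 124657 against 150687 to 156834.

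Of 28 cholesterol synthesis and uptake genes, 6 fell, none rose and 22 did not pass the test (median -0.36). Those that fell included the sterol demethylase cyp51 (-0.78) and the synthase hmgcs1 (-0.75). The count was 3 without exposed library 3, and on lane 1 alone, and 2 without DMSO library 2. Beside shares of 3.72% higher and 4.24% lower over all genes, the lists of other tissues had few calls. They were 1 lower of 23 for heart muscle, 1 lower of 25 for neurons, 3 lower and 1 higher of 26 for skeletal muscle, 3 higher of 29 for vascular endothelium, 1 lower of 27 for lens crystallins, and 2 lower of 26 for photoreceptors and pineal. Summed levels were still lower without overlap for skeletal muscle (483200 to 562953 against 583709 to 624405) and neurons (82939 to 84307 against 86111 to 87237). So were those for photoreceptors and pineal (4412 to 5080 against 5549 to 5613). The sum for vascular endothelium was higher without overlap (11482 to 11564 against 10618 to 11333), and those for heart muscle and lens crystallins overlapped. Of 13 measured crygm2d gamma-crystallin genes, a family counted after its values were seen and of which 4 are in the lens list, 3 were lower (crygm2d8, crygm2d11 and crygm2d16). For haemoglobin and red cells 3 of 15 were higher. These were the globin hbbe3 (1.09), the membrane protein gene epb41b (0.38) and hbegfa (0.48), a growth factor rather than a red cell gene. The measured exocrine pancreas genes, 31.0% of those written, had 0 calls of 9, and 0 at an unadjusted p under 0.05. In a fit over all libraries of the series the counts of lower genes dropped to 3 for liver and yolk, 3 for cartilage, 1 for melanin, 1 for epidermis and 2 for cholesterol.

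The genes that fell furthest were fkbp5, rhcga and klf9. fkbp5, a co-chaperone of steroid receptors and a known target of the glucocorticoid receptor, stood at 663, 903 and 934 in DMSO and 71.7, 77.6 and 27.7 after exposure (log2FC -3.91, SE 0.312, limma adjusted p = 4.89e-08). klf9, a Krüppel-like factor also known as a glucocorticoid target, stood at 52.9, 95.4 and 88.6 in DMSO and 6.98, 11.1 and 9.13 after exposure (log2FC -2.97, adjusted p = 9.84e-07). rhcga, an ammonia channel of ionocytes, stood at 132, 235 and 136 in DMSO and 31.1, 8.2 and 6.62 after exposure (log2FC -3.64, adjusted p = 8.7e-06). The groups did not overlap for any of these, which was a condition for picking them. Exposed library 3, the one on lane 2, had the lowest fkbp5, and on lane 1 alone the log2FC was -3.45.

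The DMSO libraries of this study were themselves high for these genes. Over the 18 DMSO libraries of the other studies, fkbp5 ran from 22.3 to 619.9 with a median of 65.8, klf9 from 3.82 to 43.1 and rhcga from 1.86 to 98. All 3 DMSO libraries of this study were above every one of these, and all 3 exposed libraries lay within their range. tsc22d3, another glucocorticoid target that was chosen after its values were seen, stood at 567, 735 and 638 in DMSO, 273, 222 and 247 after exposure and 104 to 420.3 in the other DMSO libraries. What sets this study's controls apart was not tested.

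**Figure D5:**
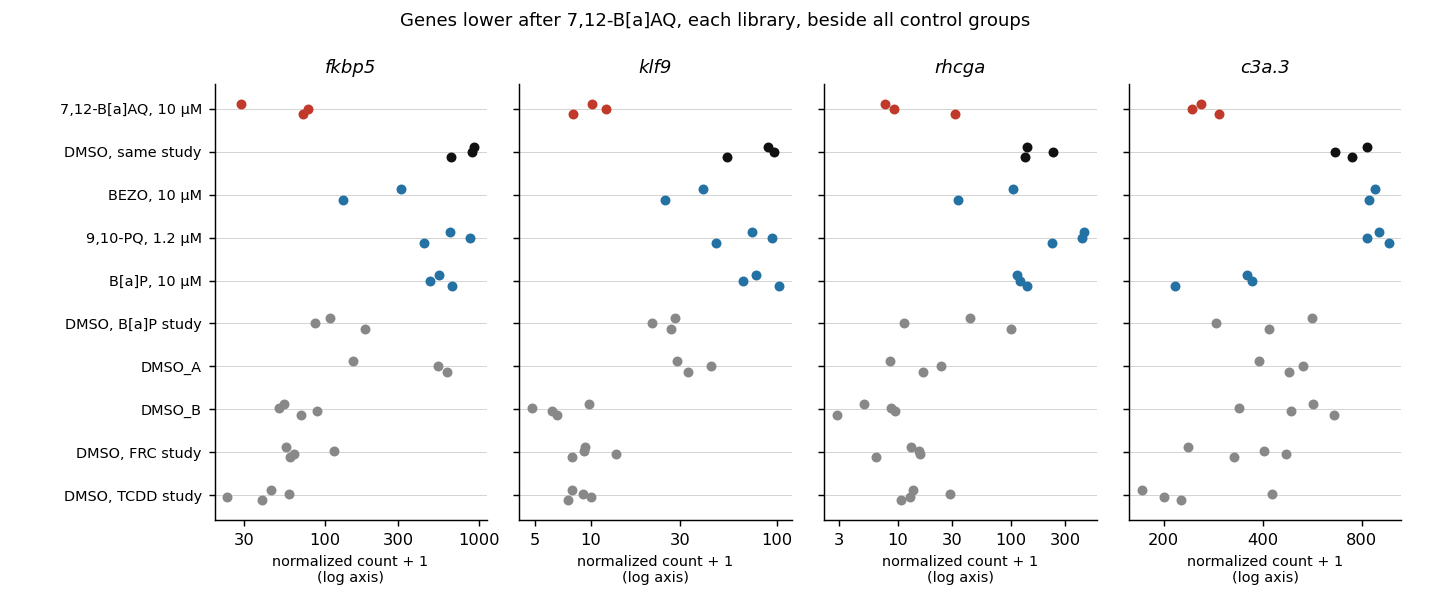
Normalized counts + 1 (log axis) of fkbp5, klf9, rhcga and the complement gene c3a.3 in each library, 1 point per library, for 7,12-B[a]AQ, the DMSO libraries of the same study, the other treatments and the DMSO groups of the other studies (DMSO_A, DMSO_B and the groups of the B[a]P, flame retardant and TCDD studies). For fkbp5 the 3 exposed libraries (27.7 to 77.6) lie below this study's DMSO libraries (663 to 934) and within the range of the other DMSO groups (22.3 to 620).

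All DEGs were also read across all controls. This study's 3 DMSO libraries lay above all 18 other DMSO libraries for 21 of the 113 lower DEGs, where 794 of all 21854 genes did so. They lay below all 18 for 7 of the 161 higher DEGs, where 599 of all 21854 genes did so. The 3 exposed libraries were above all 21 DMSO libraries of the series for 65 of the 161 higher DEGs, where 1.64% of all genes were. They were below all 21 for 21 of the 113 lower DEGs, where 1.35% were. The 21 include the 3 DMSO libraries used to call the DEGs, so the call partly fixes these counts. The exposed libraries lay within the range of the 18 other DMSO libraries for 67 of the higher and 65 of the lower DEGs. Of all genes, 70.9% were within it. The studies also differ in read length and DMSO level, so this range holds differences between studies as well as between libraries.

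Other genes with large decreases included several enzymes. uox, the urate oxidase gene, fell from 99.2, 84.2 and 103 to 15.2, 24.6 and 12.5 (log2FC -2.44, limma adjusted p = 5.77e-07), and phka1b, a regulatory subunit of glycogen phosphorylase kinase, from 117, 151 and 111 to 28.3, 23.4 and 20.8 (log2FC -2.34). cyp2r1, the vitamin D 25-hydroxylase, fell from 83.4, 81.8 and 70.31 to 23.5, 29.1 and 9.16 (log2FC -2.02). The groups were separate in each case, as the choice of genes required, with exposed library 3 the lowest for cyp2r1. The myoglobin gene mb, which encodes an oxygen store of muscle, was closely alike within each group, with 1528, 1454 and 1397 in DMSO and 494, 489.7 and 434 after exposure (log2FC -1.63, SE 0.078, adjusted p = 1.32e-11). The glyoxylate aminotransferase gene agxtb (-1.90), the enamelin gene enam (-1.71), gvin1l2 (-2.08) and mgarpb (-1.76) fell as well.

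BEZO, which differs from 7,12-B[a]AQ in ring arrangement and in having 1 ketone, was given at the same dose in the same study, so the compounds could be set against each other directly. In this one pair, 404 genes differed at an adjusted p under 0.05 (1.85% of genes), with 213 higher (0.975%) and 191 lower (0.874%) after 7,12-B[a]AQ. Of these, 112 were DEGs (0.512%), 81 higher (0.371%) and 31 lower (0.142%). Without BEZO library 2 the number of DEGs was 54. The largest difference was that of cyp1a. It stood at 237 and 209 in the BEZO libraries, between DMSO and 7,12-B[a]AQ, and the difference between the compounds was 5.88 on the log2 scale (limma adjusted p = 7.71e-17). fgf7 stood at 16.5 and 20.5 after BEZO, within or below the DMSO values, with a difference of 4.11 (adjusted p = 4.99e-10). cyp1c1 and cyp1c2 each differed by 3.61, and ahrra by 3.33. Of the 27 cyp1a neighbours, 19 were higher after 7,12-B[a]AQ than after BEZO and 1 was lower (clcn2c, -1.58, a call lost without BEZO library 1).

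Redox genes differed by less. prdx1 stood at 915 and 825 after BEZO, above DMSO and below 7,12-B[a]AQ (difference 0.83, limma adjusted p = 2.98e-05), and sqstm1 differed by 0.93. In all, 3 of the 36 Nrf2 and redox genes were higher after 7,12-B[a]AQ and none was lower. Among all genes 0.975% were higher and 0.874% lower. gsr did not pass the test after adjustment, though its unadjusted 95% interval of 0.16 to 0.83 was wholly on the higher side. nfe2l2b (95% interval -0.34 to 0.74) and ethe1 (-0.21 to 0.36) did not pass it either, with intervals that span both directions. Of the p53 list none of 20 differed in limma's test, and 2 had an unadjusted p under 0.05. For cdkn1a the interval of the difference was -0.53 to 0.48, for bbc3 -0.40 to 0.62 and for casp8 -0.33 to 0.34, each of which leaves room for a difference in either direction.

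Decreases also set the compounds apart, where 0.874% of all genes were lower after 7,12-B[a]AQ than after BEZO. fkbp5 stood at 132 and 313 and klf9 at 24 and 38.9 in the BEZO libraries, which lie between DMSO and 7,12-B[a]AQ (differences -1.90 and -1.67, limma adjusted p = 0.00443 and 0.0072). Without BEZO library 2, the call of fkbp5 was lost. c3a.3, a complement C3 gene, stood at 749, 662 and 829.8 in DMSO, 843 and 876 after BEZO and 294, 244 and 259 after 7,12-B[a]AQ, so that of these groups only 7,12-B[a]AQ was low (difference -1.70, adjusted p = 2.37e-09). Of the 31 liver and yolk genes 9, of the 27 cartilage genes 6 and of the 20 epidermis genes 5 were lower after 7,12-B[a]AQ than after BEZO, and none was higher. sox9b stood at 942 and 938 after BEZO (difference -0.61). cyp2r1 and mgarpb were low after both compounds, with differences of 0.03 (95% interval -0.76 to 0.82) and -0.0079 (-0.59 to 0.58).

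For some genes it was BEZO that stood apart from DMSO and 7,12-B[a]AQ. Among all genes 0.975% were higher after 7,12-B[a]AQ than after BEZO. Of the haemoglobin and red cell genes 8 of 15, of the lens crystallins 6 of 27 and of the photoreceptor genes 5 of 26 were higher after 7,12-B[a]AQ than after BEZO, with none lower. Of the 13 crygm2d genes, 8 were DEGs higher than in BEZO. crygm2d11, a lens gamma-crystallin chosen after its values were seen, stood at 283, 221 and 200.4 in DMSO, 112, 129 and 87.9 after 7,12-B[a]AQ and 22.1 and 32.3 after BEZO, with 7,12-B[a]AQ between the other groups. rs1a, a retinal adhesion protein gene chosen in the same way, stood at 322, 275 and 243 in DMSO, 225, 279 and 222 after 7,12-B[a]AQ and 71.5 and 81.1 after BEZO, with 7,12-B[a]AQ overlapping DMSO and BEZO below both. igfbp1a, a binder of insulin-like growth factors, was higher after 7,12-B[a]AQ than in DMSO (1.03) and higher still after BEZO, at 244, 262 and 377 against 502 and 519 (difference -0.82, limma adjusted p = 0.00716).

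B[a]P at the same 10 µM was measured in another study with its own DMSO libraries, so its change was compared with that of 7,12-B[a]AQ rather than its level. The change differed at an adjusted p under 0.05 for 474 genes (2.17%), 156 of them more positive (0.714%) and 318 more negative (1.46%) for 7,12-B[a]AQ. The difference was also over 1 on the log2 scale for 192 genes (0.879%), 43 more positive (0.197%) and 149 more negative (0.682%). That count was 123 without 7,12-B[a]AQ library 3, and it was 440 without library 1 and 379 without library 2 of the DMSO group of the B[a]P study. Of the 27 cyp1a neighbours, the change was more positive for 1 and more negative for 2. The cyp1a change was 6.999 for B[a]P. The difference of 0.76 had a 95% interval of 0.22 to 1.304 and did not pass the test after adjustment (limma adjusted p = 0.132). In levels, cyp1a was higher after B[a]P, at 14666 to 15689, than after 7,12-B[a]AQ, at 12208 to 13801. The DMSO libraries of the B[a]P study, at 80.67 to 183.9, were also above all DMSO libraries of this study. The larger cyp1a change of 7,12-B[a]AQ therefore goes with lower controls and does not rank the levels. cyp1c1 changed by 0.69 more after 7,12-B[a]AQ (adjusted p = 0.0214). For slincR the interval was -1.19 to 0.82 and for prdx1 -0.40 to 0.29. slincR was spread widely in the DMSO libraries of the B[a]P study, at 32.7, 53.4 and 179, the last in library 3. That library was also the highest for ahrra (100 against 6.94 and 5.24) and fgf7 (50.1 against 25.7 and 19.6). It was also the highest for cyp1a (183.9 against 112 and 80.67), cyp1c1 (264 against 206 and 243) and ahrrb (18.6 against 2.97 and 10.0). It was the lowest for tiparp (75.7 against 151 and 179) and pkhd1l1.1 (217 against 380 and 311). What sets this library apart was not tested. cyb5a and pkhd1l1.1 changed by less after 7,12-B[a]AQ (differences -0.55 and -1.39, adjusted p = 0.0279 and 0.00115). The calls of cyp1c1 and cyb5a were each lost in some fits with 1 library left out.

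The sets of DEGs overlapped among the higher genes. Of the 161 higher DEGs of 7,12-B[a]AQ, 36 were also higher DEGs of B[a]P, which is 22.4% of the first set and 41.4% of the 87 of B[a]P (0.398% of genes). Among the lower DEGs 1 was shared, of 113 and 10 (0.0458% of genes for B[a]P), and 6 of the 113 were among the 87 higher DEGs of B[a]P. The largest difference of change was in fkbp5, which fell by 3.91 after 7,12-B[a]AQ and rose by 2.24 after B[a]P (difference -6.15, limma adjusted p = 2.37e-06). In levels, fkbp5 was 673, 483 and 553 after B[a]P over 183, 85.3 and 108 in the DMSO libraries of that study, so the DMSO groups of the 2 studies also lay far apart. rhcga and klf9 had the next largest differences (-5.39 and -4.63), and the small heat shock gene hspb6 (-2.71) and hsp90aa1.1 (-1.72) differed the same way. Of 23 heat shock chaperones 6, of 26 photoreceptor and pineal genes 7 and of 32 clock genes 5 changed more negatively after 7,12-B[a]AQ. Among all genes 1.46% did so. Of the clock genes 1, bhlhe40, named after its value was seen, changed more positively, where 0.714% of all genes did. Among the genes with a more positive change, fosl1a differed by 2.07 (adjusted p = 0.0381), a call that was lost in 13 alternatives, and the globin hbae1.1 by 2.05.

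9,10-PQ and TCDD were given at other doses, so their values stand beside those of 7,12-B[a]AQ without a test. The 9,10-PQ libraries were on lanes 2 and 3 and their DMSO libraries on lane 1, so lane and treatment cannot be told apart there. 9,10-PQ, also a quinone, at 1.2 µM had a log2FC of 1.25 for cyp1a, -0.61 for fgf7, 0.14 for prdx1 and 0.31 for gsr, where 7,12-B[a]AQ had 7.76, 3.82, 1.91 and 1.69. It had -0.38 for fkbp5 and 0.27 for c3a.3, against -3.91 and -1.49. fosl1a had 2.67 after 9,10-PQ and 2.28 after 7,12-B[a]AQ. TCDD at 1 ng/mL had 7.68 for cyp1a, 5.44 for cyp1c1, 4.76 for fgf7 and 3.52 for slincR. These are changes over that study's own DMSO libraries and do not rank the levels. cyp1a was 31987 to 48099 after TCDD over 126 to 215, and slincR 203 to 239 over 15.2 to 25.4. After 7,12-B[a]AQ slincR was 698 to 1014 over 117 to 156. For the redox genes TCDD had -0.25 for prdx1 and -0.30 for gsr, and for fkbp5 -0.48. Of the higher DEGs of 7,12-B[a]AQ, 27 were also higher DEGs of TCDD, which is 16.8% of 161 and 41.5% of the 65 of TCDD (0.297% of genes). Of the lower DEGs 1 was shared, of 113 and 11 (0.0503% of genes for TCDD).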

How the data were processed

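The authors aligned reads to zebrafish GRCz11 with STAR, counted them on genes with HTSeq, removed genes that had 0 reads in at least 43 entries, scaled the counts with DESeq2 across the series and deposited log2 values after a variance stabilizing transformation. The design had assumed normalized values, so the deposited log2 values were transformed back, which gave whole read numbers within 0.05 for 100% of 3715180 values. Gene symbols came from a RefSeq table by gene identifier (20411 of 21854 matched). Lists measured under 80% were liver and yolk (79.5%), photoreceptors (76.5%), glutathione S-transferases (76.2%), lens (64.3%), hatching gland (53.8%), glucuronosyltransferases (35.1%) and pancreas (31.0%).

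Entries sharing lane and index were averaged, and log2(normalized value + 1) was fitted with limma 3.58.1 (trend, two-sided) in R 4.3.3 over the 11 libraries of the study, over the libraries of their own studies for B[a]P and TCDD against DMSO, and over both studies for the difference from B[a]P, with Benjamini-Hochberg adjustment over all genes. Intervals are 95%. Tables were made with Python 3.11.15, numpy 2.4.6, pandas 2.3.3, scipy 1.17.1 and matplotlib 3.10.9. On data simulated for the DMSO comparison, 66 of 67 genes changed by 1.5, 67 of 67 by 2 and 66 of 66 by 3 on the log2 scale were found, and 1 unchanged gene was called. The changed genes had DMSO means of about 50 or more, and all genes were given 1 low dispersion. Some real genes spread more, such as fosl1a (exposed mean 57.8, SD 27.5). The simulation therefore checks the procedure and does not give the error rates in these data.

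The groups, the members and the gene lists were chosen with earlier results of these data known. Named genes were all members of the CYP1, receptor and cyp1a neighbour lists; the 15 largest increases and decreases among DEGs without overlap and with a mean of at least 50 in the higher group; up to 6 called members of every other list by size; and the 8 largest differences each way from BEZO and from B[a]P. Any other gene is said to have been chosen after its values were seen. Alternatives covered pseudocount, filter, scaling, weights, fit, lane, entries, replicate block and each library left out. Negative binomial count tests were not run, and the recovered reads entered as an alternative, with voom weights. Whether counting used strand is not given in the sources used here, so overlapping genes cannot be told apart.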

Additional observations from a re-analysis of the deposited data

How the results depend on the processing

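None of the named-gene changes recomputed here reversed its direction in any alternative. Named genes with a log2FC near 0, such as cyp1d1 and ahr1b, are not covered by this statement. Of 3380 recomputed values for 161 named-gene changes against DMSO, 3076 kept their direction and side of the threshold and 304, from 73 genes, lost significance, most often in the fit over all libraries of the series. The 274 DEGs became 143 with a pseudocount of 10 and 170 in the fit over the whole series, and ran from 214 to 283 with 1 library left out. The share of higher genes among them (58.8%) was 68.0% on the deposited log2 values, 65.5% with voom weights and 68.5% with every entry as its own replicate, and 56.7 to 65.7% with 1 library left out, the highest without DMSO library 1. The 1741 genes at an adjusted p under 0.05 became 1045 with only the compared groups in the fit, 457 with the whole series in the fit and 3687 with every entry as its own replicate. They ran from 1036 to 1805 with 1 library left out, with 1036 without DMSO library 2 and 1101 without DMSO library 3. The 112 DEGs between 7,12-B[a]AQ and BEZO became 35 in the fit over the whole series and ran from 54 to 110 with 1 library left out. The 192 genes whose change differed from that of B[a]P became 90 with only the compared groups in the fit and 364 with every entry as its own replicate, and ran from 123 to 440 with 1 library left out. With 1 library left out, the calls against DMSO of ptges3b, sult2st2, sult3st3, gstm.3, nqo1, gadd45aa, sesn2, cxcl18b, epb41b and gc were lost in at least 1 case. On lane 1 alone there were 216 DEGs, and with summed reads, a setting chosen after seeing the data, 247. The fit over the whole series lowered the counts of lower genes to 3 for liver and yolk, 3 for cartilage, 1 for melanin, 1 for epidermis, 3 for DNA replication and 2 for cholesterol, and that of higher p53 targets to 4. The cause of these changes was not tested.

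Entry numbers recur across groups, but entries with the same number did not deviate together (correlations -0.0043 to 0.073 over 6 pairs, none over 0.1, and 1 of 6 entries matching its own number best), so they were not taken as pairs. With every entry as its own replicate and the entry number as a replicate block, 331 DEGs, 3699 genes at an adjusted p under 0.05, 116 DEGs against BEZO and 385 genes differing from B[a]P were called. These fits count entries of 1 library as independent.

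With 3 libraries a group, the spread between libraries limits the precision. Of 21854 genes, 4836 had an unadjusted p under 0.05 in limma's test against DMSO, and 1741 had an adjusted p under 0.05.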

Other observations

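Further gene groups were written down as lists after their values were seen, and so describe these libraries only. Among all genes 3.72% were higher and 4.24% lower against DMSO, and 0.874% were lower than after BEZO. Of 18 measured complement and plasma protease inhibitor genes, 12 were lower after 7,12-B[a]AQ and none was higher, with a median log2FC of -0.46 against 0.028 over all genes. Their summed level was 13369 to 13778 in the exposed and 18819 to 19994 in the DMSO libraries, with no overlap. c4b, a complement C4 gene, stood at 699, 674 and 605 in DMSO, 312, 292 and 349 after 7,12-B[a]AQ and 852 and 858 after BEZO (log2FC -1.05, limma adjusted p = 1.42e-07). Of the 18, 9 were lower after 7,12-B[a]AQ than after BEZO at the same dose. These genes are made mainly by the liver, whose marker fabp10a was lower too, and the part of that in the result was not tested.

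Genes of vitamin D handling moved in both directions. cyp24a1, the enzyme that inactivates vitamin D, went from 5.42, 3.88 and 3.91 to 21.9, 26.3 and 29 (log2FC 2.31, limma adjusted p = 2.53e-05), and cyp27b1, the enzyme that activates it, from 70.33, 64.4 and 80.8 to 22.1, 27.2 and 25.4 (log2FC -1.49, adjusted p = 0.000115). The groups did not overlap for either. With cyp2r1, the vitamin D binding protein gene gc (-1.25) and the stanniocalcin gene stc2b (-1.14) among the lower genes, and the parathyroid hormone gene pth1a (2.13) and the receptor gene vdra (0.60) among the higher, 7 of 13 measured genes passed the test. BEZO gave 2.44 for cyp24a1 and -1.37 for cyp27b1, and the intervals of the differences between the compounds were -0.81 to 0.55 and -0.62 to 0.38.

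Of 22 ionocyte genes, 6 were lower and 1 was higher. rhbg, an ammonia channel of the gill and skin, stood at 1079, 930.0 and 1086 in DMSO and 446, 472 and 396 after exposure (log2FC -1.23, limma adjusted p = 6.16e-09), below the 844 to 3201 of all other DMSO libraries, unlike its relative rhcga. Of 18 measured glucocorticoid receptor and target genes, 6 were lower and 1 (pck1, 0.60) was higher, the receptor gene nr3c1 had 0.46 (adjusted p = 0.102), and of 12 pituitary and interrenal genes none passed limma's test, with 2 at an unadjusted p under 0.05. Of 21 immediate early genes, 5 were higher and none was lower. fosab stood at 49.4, 56.6 and 55.5 in DMSO and 118, 265 and 259 after exposure, with exposed library 1 the lowest of the exposed, as for fosl1a and klf10. Between 7,12-B[a]AQ and BEZO none of the 21 differed in limma's test, with 1 at an unadjusted p under 0.05.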
